A study of Mus musculus with 14 samples.

Results

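The enzymes that build the lipids of the epidermal barrier were examined through 9 genes of mouse neck skin: Alox12b, Aloxe3, Abca12, Cers3, Elovl4, Elovl1, Cyp4f39, Pnpla1 and Sdr9c7. They were taken by symbol from a table of RNA counts with 35328 genes, and all 9 were among the 20940 genes that passed the filter on low counts. Polyadenylated RNA was sequenced from 14 libraries of frozen, cryosectioned skin, each labelled as coming from 1 female C57BL/6J mouse. In the antibody experiment, 3 libraries came from mice injected intraperitoneally with MAR1, an antibody to the alpha chain of the high-affinity IgE receptor that is used to deplete basophils. Another 3 came from mice given an isotype control antibody. Each injection held 20 µg, and 3 injections were given before MC903 was started and more every other day during it. In the genetic experiment, 3 libraries came from Pdgfra-CRE/Il4ra fl/fl mice (cKO) and 3 from Il4ra fl/fl mice (fl/fl), with no injections. Pdgfra-driven Cre acts in fibroblasts and other Pdgfra-expressing cells, not in keratinocytes as such, and both groups carry the floxed Il4ra allele, the gene of the interleukin-4 receptor alpha chain. All 4 of these groups received MC903, which is calcipotriol, a vitamin D analogue that inflames mouse skin in the manner of atopic dermatitis, at 1 nmol a day in 100 µL on shaved neck skin for 6 days. The remaining 2 libraries were untreated C57BL/6J skin without antibody. No label says whether they received vehicle, and since one library name is the other plus a suffix, they may share a mouse and their spread may be technical. Mice were labelled as 6 weeks old, and those of the genetic experiment as 6 to 7 weeks.

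The outer epidermis keeps water in with stacked lipid sheets and with a lipid envelope bound to the surface of dead keratinocytes. Both depend on acylceramides, in which an extremely long fatty acid is joined to a sphingoid base and carries linoleate at its far end. Elovl1 and Elovl4 lengthen the fatty acid, Cyp4f39 hydroxylates its end, Cers3 joins it to the sphingoid base, Pnpla1 attaches the linoleate and Abca12 loads the product into lamellar granules. The lipoxygenases Alox12b and Aloxe3 and the dehydrogenase Sdr9c7 then oxidise the linoleate in turn, which prepares the lipid for attachment to protein. Inherited loss of the human counterparts of most of these genes causes ichthyosis.

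In these libraries 5 of the 9 genes were called lower in MAR1 than in isotype skin: Alox12b, Sdr9c7, Elovl1, Cyp4f39 and Elovl4. Of all tested genes 26.5% were called lower there. Elovl4 and Cyp4f39 lost that call when libraries were scaled to keratinocyte genes instead. After MC903, Elovl4 was called higher than untreated skin in isotype mice, where 1.35% of all tested genes were, and none of the other 8 genes was called. Elovl4 lost that call when any single library of these groups was left out. None of the 9 differed between cKO and fl/fl skin at the threshold used. Calls rest on edgeR's quasi-likelihood test with a Benjamini-Hochberg adjusted p below 0.05 over all genes, and all adjusted p-values in the text come from it. Levels are given as CPM, counts scaled to a common library size with TMM factors. The p-values measure the spread between these libraries.

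The libraries differed in depth and in other RNA before any barrier gene is considered. Totals were 5.78 to 10.6 M counts with MAR1 against 34.3 to 35.6 M with isotype, 16.5 to 30.8 M in cKO against 45.1 to 48 M in fl/fl, and 37.5 and 55.3 M in untreated skin. Mitochondrial transcripts held 0.128% to 0.342% of counts with MAR1 against 2.12% to 2.33% with isotype, 0.476% to 2.6% in cKO against 2.28% to 4.18% in fl/fl, and 2.57% and 4.23% in untreated skin. Olfactory and vomeronasal receptor genes, which skin is not known to use at such levels, held 3.86% to 9.29% of counts with MAR1 against 0.269% to 0.439% with isotype, 0.467% to 2.58% in cKO against 0.0479% to 0.0768% in fl/fl, and 0.0486% and 0.277% in untreated skin. Keratinocyte markers were present in every library, with the list for undifferentiated keratinocytes at 0.506% to 3.45% of counts in MC903 libraries and 0.648% and 1.42% in untreated skin. The fl/fl libraries 1 and 2 also held the salivary gene Bpifa2 at 732 and 10900 CPM, against 0.118 CPM in fl/fl library 3. The Y-linked gene Ddx3y stood at 69.8 CPM in cKO library 1, which is labelled female, and at 0 in the other cKO libraries. Il4ra itself was 70.6, 67.7 and 14.5 CPM in cKO against 214, 145 and 176 CPM in fl/fl (log2 fold change -1.81 ± 0.574 (SE), n = 3 each, adjusted p = 0.0427 in edgeR), and 45.7, 23.2 and 8.93 CPM with MAR1 against 195, 178 and 192 CPM with isotype. The basophil gene Mcpt8 averaged 25.5 CPM with MAR1 (18.0 to 31.2) against 5.02 CPM with isotype (3.97 to 6.69). Its RNA was thus not lower with MAR1, and whether basophils were depleted in this skin was not tested. In such tissue pieces fewer cells of a type and less RNA per cell cannot be told apart.

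**Figure D1:**
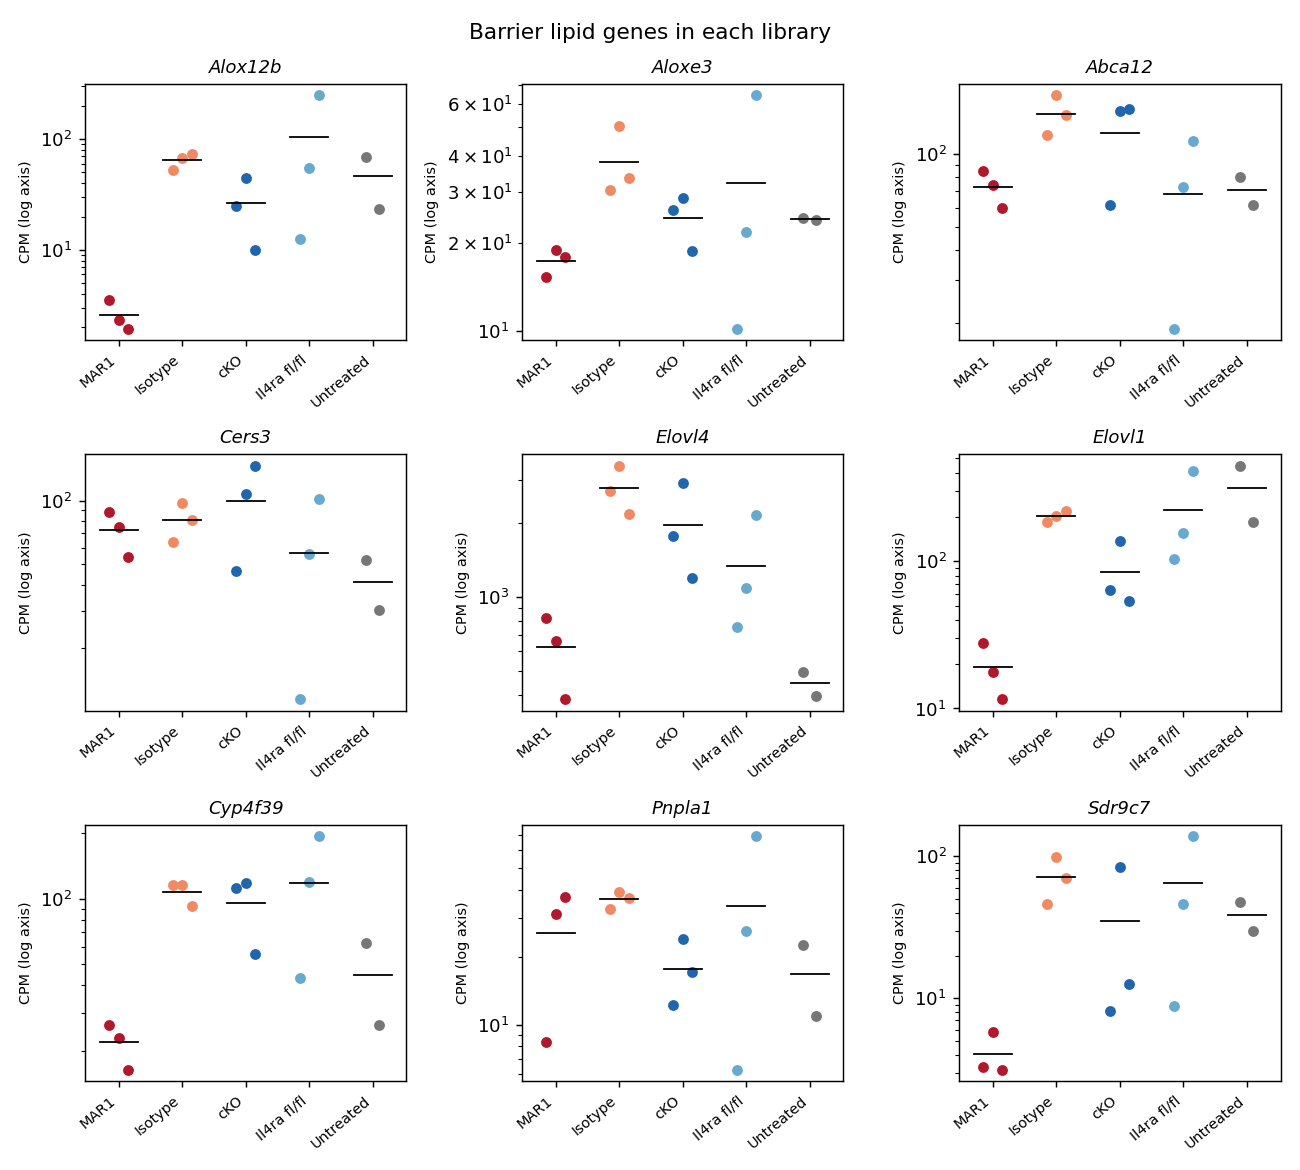
Level of each of the 9 genes in each library, in CPM on a log axis, 1 point per library and 1 colour per group. MAR1 libraries lie below all isotype libraries for 7 genes, and the fl/fl libraries spread most widely.

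Of the 3 enzymes that oxidise the linoleate, Alox12b and Sdr9c7 were lower in MAR1 than in isotype skin and Aloxe3 was not called. Alox12b, which adds oxygen to the linoleate of the finished acylceramide, had 3.52, 2.31 and 1.95 CPM in MAR1 skin, against 53.0, 67.6 and 73.6 CPM in isotype skin. Every MAR1 library lay far below every isotype library. The level fell 24.6-fold (log2 fold change -4.62 ± 0.955 (SE), n = 3 each, adjusted p = 0.0021 in edgeR). Sdr9c7, the dehydrogenase of the last oxidation step, had 3.26, 5.83 and 3.15 CPM in MAR1 skin, against 46.3, 98.3 and 71.0 CPM in isotype skin. These groups did not overlap either, and the level fell 17.5-fold (log2 fold change -4.13 ± 1.02 (SE), n = 3 each, adjusted p = 0.00584 in edgeR). Aloxe3, the lipoxygenase that isomerises the product of Alox12b, had 15.3, 19.0 and 18.0 CPM in MAR1 skin, against 30.6, 50.5 and 33.5 CPM in isotype skin. Its groups were also apart, but it did not pass the threshold (log2 fold change -1.13 ± 0.496 (SE), n = 3 each, adjusted p = 0.0708 in edgeR).

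The steps that make and lengthen the fatty acid and hydroxylate it were lower as well. Elovl1, an elongase of saturated very long fatty acids, had 27.8, 17.6 and 11.6 CPM in MAR1 skin, against 184, 203 and 219 CPM in isotype skin. The isotype libraries lay close together, all above the MAR1 libraries, and the level fell 10.6-fold (log2 fold change -3.41 ± 0.579 (SE), n = 3 each, adjusted p = 0.000596 in edgeR). Elovl4, the elongase that reaches the extremely long chains of acylceramides, had 822, 665 and 383 CPM in MAR1 skin, against 2717, 3432 and 2174 CPM in isotype skin. The groups did not overlap, and the level fell 4.45-fold (log2 fold change -2.15 ± 0.472 (SE), n = 3 each, adjusted p = 0.00256 in edgeR). Cyp4f39, the mouse cytochrome P450 that hydroxylates the chain end, had 26.5, 23.0 and 16.5 CPM in MAR1 skin, against 115, 115 and 92.4 CPM in isotype skin. It fell 4.88-fold without overlap between groups (log2 fold change -2.29 ± 0.496 (SE), n = 3 each, adjusted p = 0.00241 in edgeR).

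The genes for ceramide assembly and transport differed less. Abca12, the lipid transporter of lamellar granules, had 85.2, 74.7 and 59.6 CPM in MAR1 skin, against 120, 175 and 144 CPM in isotype skin. The groups did not overlap, yet the difference was not called (log2 fold change -0.999 ± 0.501 (SE), n = 3 each, adjusted p = 0.109 in edgeR). Cers3, the ceramide synthase for extremely long acyl chains, had 88.7, 74.8 and 54.0 CPM in MAR1 skin, against 63.7, 97.3 and 81.4 CPM in isotype skin. Those values interleaved (log2 fold change -0.16 ± 0.587 (SE), n = 3 each, adjusted p = 0.836 in edgeR), and the sign of Cers3 turned positive under RLE scaling, library totals and scaling to epithelial genes. Pnpla1, the transacylase that attaches linoleate, had 8.37, 31.1 and 37.2 CPM in MAR1 skin, against 32.8, 39.0 and 36.9 CPM in isotype skin. It was low in 1 MAR1 library and within reach of isotype in the other two (log2 fold change -0.51 ± 0.681 (SE), n = 3 each, adjusted p = 0.543 in edgeR), and its sign also turned under RLE and epithelial scaling.

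Thus 5 of the 9 genes were called lower and 0 higher in MAR1 skin, against 26.5% of all tested genes called lower and 22.6% higher in the same comparison. In 7 of the 9, all MAR1 libraries lay below all isotype libraries, as did 36.4% of all tested genes. Their median log2 fold change was -2.15, that of all tested genes 0. Marker lists of cell types did not all move the same way. Of 15 markers of undifferentiated or all keratinocytes, 10 were called lower and 0 higher (median log2 fold change -1.73), and of 14 differentiation markers 8 were called lower and 0 higher (median -1.95). Of 12 dermal fibroblast markers 7 were called lower and 2 higher (median -1.47). Of 13 sebaceous gland markers 6 were called lower and 1 higher (median -1.08). Hair follicle markers were called lower in 3 of 14 and higher in 0 (median -2.93), a share near that of all genes. Adipocyte markers were called lower in 1 of 8 and higher in 1 (median -0.17). Skeletal muscle markers were called in 0 of 12 (median -0.45). Among 12 immune cell markers 2 were called lower and 3 higher (median 0.60). The undifferentiated list held 0.607% to 1.15% of counts with MAR1 against 2.5% to 3.19% with isotype, and the differentiated list 0.378% to 0.59% against 0.861% to 2.33%. Fibroblast markers held 0.142% to 0.198% of counts with MAR1 against 0.37% to 0.446% with isotype. The part of tissue makeup in the difference was not tested. The scaling that follows equalises only the mean of the undifferentiated list, whose genes had log2 fold changes from -4.78 to 0.33. It cannot tell fewer cells from less RNA per cell. With libraries scaled so that the undifferentiated list had the same mean level in all of them, Alox12b, Elovl1 and Sdr9c7 were still called lower in MAR1 skin, Elovl4 (log2 fold change -0.27, adjusted p = 0.715) and Cyp4f39 (-0.39, adjusted p = 0.483) were no longer called in edgeR, and Cers3 was called higher (1.77, adjusted p = 0.0145). Abca12, Aloxe3 and Pnpla1 turned positive there without being called. Under the same scaling 2 of the 14 differentiation markers were called higher and 2 lower (median -0.04).

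**Figure D2:**
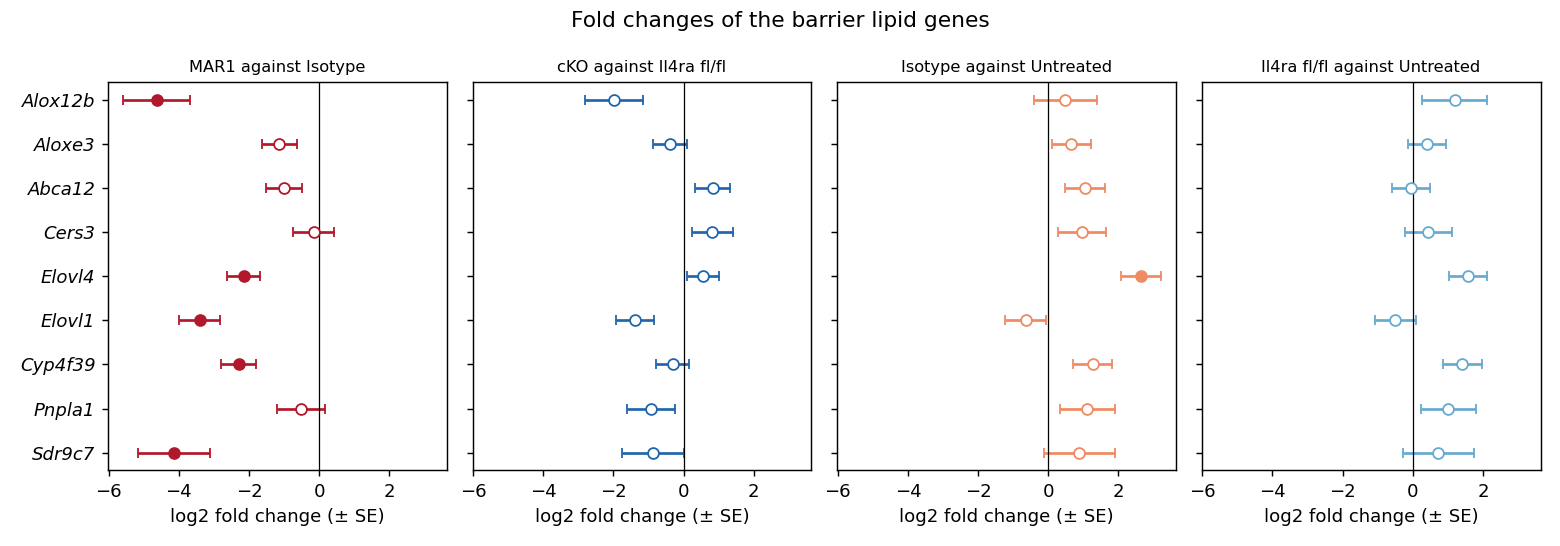
Log2 fold change of each gene with its SE in 4 comparisons, filled where the gene was called and open where it was not. With MAR1 against isotype 5 genes are filled, all negative, and with isotype against untreated skin only Elovl4 is filled, at 2.64.

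The levels of the 9 genes were also set beside those of receptor genes in the same library. Per kilobase of exon, 317 vomeronasal receptor genes averaged 5.84, 10.2 and 12.3 CPM in the MAR1 libraries, against 0.653, 0.419 and 0.621 CPM in the isotype libraries. A minority of receptor genes carries that mean: the median receptor gene stood at 0.136, 0.238 and 0.301 CPM per kilobase with MAR1. On that scale Aloxe3 stood at 5.06 to 6.29 CPM per kilobase and Pnpla1 at 1.87 to 8.29 with MAR1, and both were below the receptor gene mean of their library in all 3. Below it were 4 of the 9 genes in MAR1 library 1 (Alox12b, Aloxe3, Pnpla1, Sdr9c7) and 7 in MAR1 libraries 2 and 3, where Abca12, Elovl1 and Cyp4f39 joined them. Cers3 and Elovl4 were above it in every library. In cKO library 3 Pnpla1 alone was below, and in the isotype, fl/fl and untreated libraries none was. The part of these reads in the difference between MAR1 and isotype was not tested.

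The scale per kilobase also orders the 9 genes by level within a group. Elovl4 averaged 208 CPM per kilobase with MAR1, 925 with isotype, 655 in cKO, 444 in fl/fl and 149 in untreated skin. It led the 9 genes in all 4 MC903 groups. In untreated skin Elovl1 averaged 162 CPM per kilobase, with libraries from 95 to 230, and the 132 to 165 of Elovl4 fell inside that range. Next after Elovl4 came Cers3 with MAR1 (22.3, range 16.6 to 27.2), and Elovl1 with isotype (104, range 94.9 to 113). In cKO skin Elovl1 (43.9, range 27.6 to 71.3) and Cyp4f39 (36.4, range 21.3 to 45.1) overlapped each other and Cers3 (30.7, range 14.3 to 44.9) as the next highest, and in fl/fl skin Elovl1 averaged 115. The lowest place was held by Alox12b with MAR1 (1.07, range 0.802 to 1.45, overlapping the 1.1 to 2.03 of Sdr9c7) and by Pnpla1 with isotype (8.08), in cKO (3.97) and in untreated skin (3.74). In fl/fl skin the lowest means, 7.49 for Abca12 and 7.57 for Pnpla1, did not differ beyond their ranges.

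**Figure D3:**
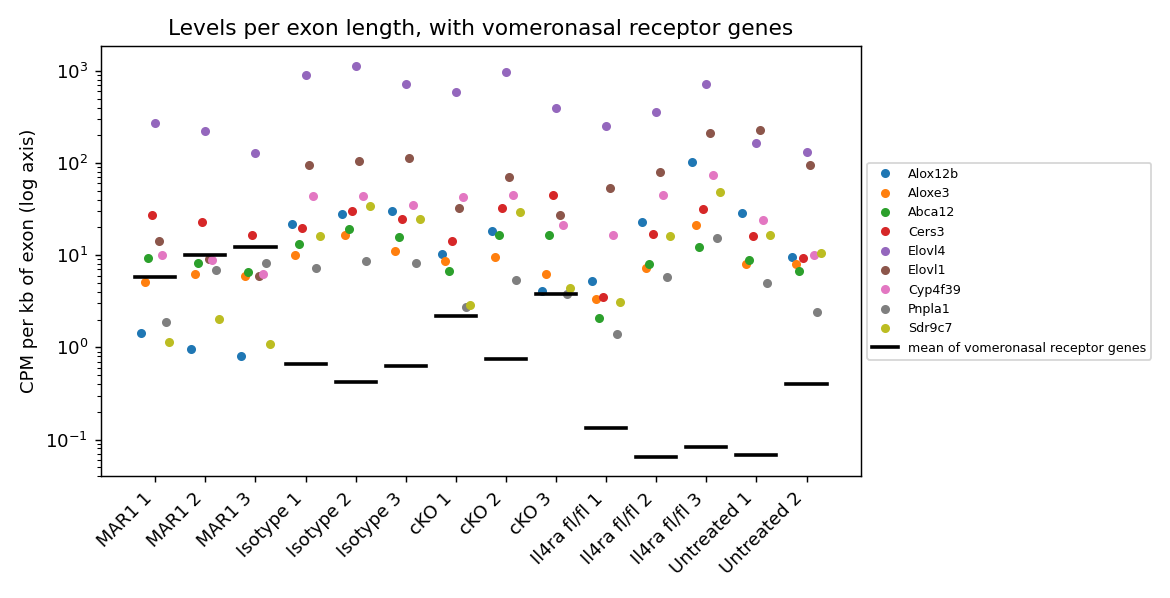
Level of the 9 genes per kilobase of exon in each library, in CPM per kilobase on a log axis, with the mean of the vomeronasal receptor genes of the same library for comparison. Elovl4 stands above the other 8 genes in the MC903 groups, and 4 or 7 of the 9 genes lie under the receptor mean in MAR1 libraries.

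The promoters of 4 genes are printed here because they cover the spread of behaviour among the 9: Elovl4, called higher than untreated skin in isotype and cKO skin, Alox12b and Sdr9c7, with the largest falls of the 9 in MAR1 against isotype skin, and Cers3, which was not called there. Each line holds the 250 bases before the annotated start of transcription in RefSeq, build GRCm38.p6, read 5′ to 3′ on the gene's strand, and 8 of the 9 genes were matched there. Capitals mark matches, on either strand, to the GC box GGGCGG, the TATA box TATAAA or the nuclear receptor half-site AGGTCA.
Elovl4 (chr9:83806306-83806555, minus strand): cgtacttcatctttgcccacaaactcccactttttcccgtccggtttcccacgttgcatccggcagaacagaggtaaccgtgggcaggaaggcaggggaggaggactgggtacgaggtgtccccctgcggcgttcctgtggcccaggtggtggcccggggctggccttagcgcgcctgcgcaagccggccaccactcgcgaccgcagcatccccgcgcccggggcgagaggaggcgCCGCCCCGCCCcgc
Alox12b (chr11:69156822-69157071, plus strand): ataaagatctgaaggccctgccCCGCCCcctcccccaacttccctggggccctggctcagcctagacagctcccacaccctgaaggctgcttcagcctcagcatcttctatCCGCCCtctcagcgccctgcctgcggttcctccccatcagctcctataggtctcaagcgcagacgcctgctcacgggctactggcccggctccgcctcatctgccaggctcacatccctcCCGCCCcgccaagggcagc
Sdr9c7 (chr10:127898285-127898534, plus strand): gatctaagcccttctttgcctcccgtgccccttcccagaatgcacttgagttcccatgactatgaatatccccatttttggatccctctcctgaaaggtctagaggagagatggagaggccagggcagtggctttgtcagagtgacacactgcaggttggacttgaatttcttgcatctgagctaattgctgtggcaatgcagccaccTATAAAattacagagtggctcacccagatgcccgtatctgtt
Cers3 (chr7:66743254-66743503, plus strand): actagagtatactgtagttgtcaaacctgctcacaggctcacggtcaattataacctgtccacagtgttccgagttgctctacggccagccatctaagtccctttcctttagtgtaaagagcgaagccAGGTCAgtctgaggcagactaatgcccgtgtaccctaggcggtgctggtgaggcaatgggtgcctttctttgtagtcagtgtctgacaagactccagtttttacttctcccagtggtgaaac
Elovl4 holds 2 overlapping GC boxes, 14 and 9 bases before the start, and Alox12b holds 3, at 228, 139 and 19 bases. Sdr9c7 holds a TATA box 42 bases before its start, and Cers3 a half-site at 122 bases. Of 32851 such windows of 250 bases in the table, 32.7% hold a GC box, 12.4% a TATA box and 14% a half-site. The AP-1 letters TGANTCA (6.75% of windows) and the grainyhead-like letters AACCNGTT (1.79%) were also searched and are not in these windows. The letters are a description of sequence and show no binding.

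Alox12b has the lipoxygenase gene Aloxe3 on one side and Alox8 on the other, as neighbouring protein-coding genes of chromosome 11 in RefSeq. Alox8, another lipoxygenase of mouse epidermis, had 15.9, 39.1 and 36.7 CPM in MAR1 skin, against 2.79, 2.30 and 2.74 CPM in isotype skin. It rose where Alox12b fell, without overlap between groups (log2 fold change 3.55 ± 0.636 (SE), n = 3 each, adjusted p = 0.00077 in edgeR). Per kilobase Alox8 stood at 4.93, 12.1 and 11.4 CPM in these MAR1 libraries, close to the receptor gene means of 5.84, 10.2 and 12.3, and the part of such reads in its rise was not tested. Within a library the ratio of Alox12b to Aloxe3 counts was 0.23, 0.122 and 0.108 with MAR1 against 1.73, 1.34 and 2.2 with isotype. It was 0.532 to 1.55 in cKO against 1.24 to 3.86 in fl/fl, and 0.971 and 2.82 in untreated skin. Such a ratio does not depend on how libraries are scaled, and only the MAR1 libraries stood below all others.

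The count ratio of the elongases Elovl4 and Elovl1 took a separate range in each group. It was 29.5, 37.8 and 33.1 with MAR1 against 14.7, 16.9 and 9.93 with isotype, 27.8, 21.1 and 22.4 in cKO against 7.26, 6.94 and 5.29 in fl/fl, and 1.11 and 2.15 in untreated skin. No group overlapped another, and every MC903 library had a higher ratio than both untreated libraries. Elovl4 supplied 65.5% to 76.1% of the counts of the 9 genes with MAR1, 74.3% to 80.8% with isotype, 72% to 83.3% in cKO and 61.8% to 77.7% in fl/fl, against 38.1% and 50.3% in untreated skin. Both ratios were chosen after their values were seen and are given with no test.

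**Figure D4:**
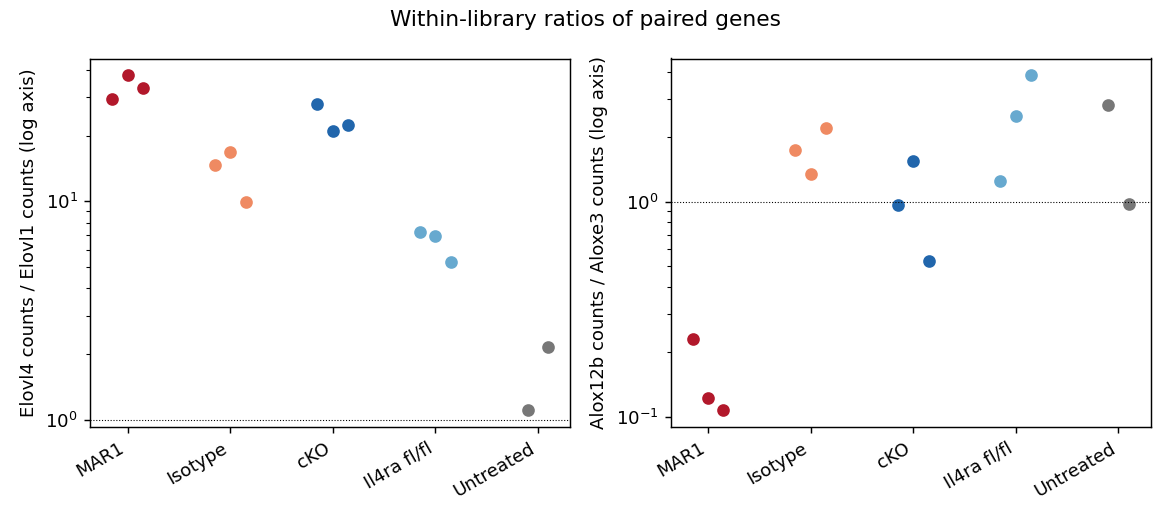
Count ratio of Elovl4 to Elovl1 (left) and of Alox12b to Aloxe3 (right) in each library, on log axes, 1 point per library. The left ratio separates all 5 groups, from 1.11 in untreated skin to 37.8 with MAR1, and the right ratio is at most 0.23 in the MAR1 libraries and at least 0.532 elsewhere.

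MC903 with isotype antibody was compared with untreated skin for the 9 genes. These groups differ in MC903 on shaved skin and in antibody injections, and no label says whether untreated skin received vehicle. The parts of these in a difference cannot be told apart. Elovl4 had 2717, 3432 and 2174 CPM in isotype skin, against 496 and 396 CPM in untreated skin. The groups were far apart, and the level rose 6.22-fold (log2 fold change 2.64 ± 0.565 (SE), n = 3 and 2, adjusted p = 0.0252 in edgeR). It lost its call when any one of the 5 libraries was left out (adjusted p = 0.0622 to 0.148 in edgeR). Elovl1, which is one step earlier in chain length, had 184, 203 and 219 CPM in isotype skin, against 446 and 184 CPM in untreated skin. These overlapped, and the direction of Elovl1 (log2 fold change -0.64 ± 0.581 (SE), n = 3 and 2, adjusted p = 0.579 in edgeR) turned to 0.13 without untreated library 1.

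For the other 7 genes the values in isotype skin were higher on average, but none was called, and under epithelial scaling Alox12b and Aloxe3 changed sign. Cyp4f39 had 115, 115 and 92.4 CPM in isotype skin, against 62.9 and 26.3 CPM in untreated skin (log2 fold change 1.27 ± 0.549 (SE), n = 3 and 2, adjusted p = 0.243 in edgeR). Abca12, at 120, 175 and 144 CPM in isotype skin against 80.2 and 61.4 CPM in untreated skin, had a log2 fold change of 1.05, and Cers3, with 52.5 and 30.4 CPM in untreated skin, of 0.96 (adjusted p = 0.35 and 0.462 in edgeR). The untreated libraries also differed from each other, and library 1 was the higher in all 9 genes. Alox12b had 69.0 and 23.3 CPM in untreated skin, Sdr9c7 47.8 and 29.9 CPM, Pnpla1 22.6 and 10.95 CPM and Aloxe3 24.5 and 24.0 CPM. The remaining log2 fold changes were 1.11 for Pnpla1, 0.89 for Sdr9c7, 0.65 for Aloxe3 and 0.49 for Alox12b, with adjusted p from 0.465 to 0.822 in edgeR for these 4 genes. So 1 of the 9 was called higher, and 0 lower, against 1.35% of all tested genes called higher and 1.72% lower. All isotype libraries lay above both untreated libraries in 6 of the 9, as they did in 26.2% of all tested genes, and the median log2 fold change was 0.96, against 0.11 for all genes. Without fl/fl libraries 1 and 2, which enter only through the shared spread, 2 of the 9 were called, and without any one isotype or untreated library 0. Krt14, a keratin of basal cells, was the only 1 of 15 undifferentiated keratinocyte markers called (log2 fold change 3.54, list median 0.37). Flg, the filaggrin precursor of cornifying cells, was the only 1 of 14 differentiation markers called (4.15). Fold changes in that second list were positive for 6 and negative for 8 markers, with a median log2 fold change of -0.11. The undifferentiated list held 2.5% to 3.19% of counts with isotype, against 0.648% and 1.42% in untreated skin, and with that list scaled to the same mean in all libraries the log2 fold change of Elovl4 was 1.85 and not called (adjusted p = 0.223 in edgeR).

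The MC903 groups of the genetic experiment were also set against untreated skin. In cKO skin Elovl4 had 1771, 2927 and 1200 CPM, against 496 and 396 CPM in untreated skin. It rose 4.41-fold (log2 fold change 2.14 ± 0.55 (SE), n = 3 and 2, adjusted p = 0.0373 in edgeR), the only 1 of the 9 called there, against 3.86% of all tested genes called higher and 2.96% lower. Without cKO library 1, which carries the Y-linked transcripts, it was not called (adjusted p = 0.057 in edgeR), nor without untreated library 1 (0.193) or 2 (0.0819). Without fl/fl libraries 1 and 2, 4 of the 9 were called, and without cKO libraries 1 and 3, 0. Elovl1 in cKO skin, at 63.6, 138 and 53.5 CPM against 446 and 184 CPM in untreated skin, lay below untreated skin in every library but was not called (log2 fold change -1.89 ± 0.582 (SE), n = 3 and 2, adjusted p = 0.0629 in edgeR). In fl/fl skin Elovl4 had 753, 1084 and 2164 CPM, again above both untreated libraries, and was not called (log2 fold change 1.58 ± 0.536 (SE), n = 3 and 2, adjusted p = 0.139 in edgeR). None of the 9 was called there, with 0.769% of all tested genes called higher and 0.95% lower. At an unadjusted p under 0.05, edgeR gave 2 of the 9, Elovl4 and Cyp4f39, and 3837 of all 20940 tested genes. DESeq2 called 1 of the 9 after adjustment. All of these comparisons share the 2 untreated libraries.

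Against the same untreated libraries, MAR1 skin kept Elovl4 at 822, 665 and 383 CPM, a range that overlaps the 496 and 396 CPM of untreated skin (log2 fold change 0.48 ± 0.513 (SE), n = 3 and 2, adjusted p = 0.44 in edgeR). Below untreated skin were Alox12b (log2 fold change -4.14 ± 0.973 (SE), adjusted p = 0.00442), Elovl1 (-4.05 ± 0.62, adjusted p = 0.000334) and Sdr9c7 (-3.25 ± 1.03, adjusted p = 0.0208 in edgeR). Sdr9c7 lost its call without MAR1 library 1 (adjusted p = 0.0555 in edgeR) or 3 (0.0628), without untreated library 1 (0.0911) or 2 (0.0707), with no filter (0.0506) and under epithelial scaling (0.052). These 3 of the 9 were called lower and 0 higher, where 25.9% of all tested genes were called lower and 23.5% higher.

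In the genetic experiment the question was whether loss of Il4ra from Pdgfra-expressing cells changes the skin after MC903. Alox12b had 25.0, 44.5 and 9.98 CPM in cKO skin, against 12.7, 55.1 and 249 CPM in fl/fl skin. The fl/fl values span a wide range that overlaps the cKO values, and the difference was not called (log2 fold change -1.99 ± 0.828 (SE), n = 3 each, adjusted p = 0.108 in edgeR), with a value of 0.04 without fl/fl library 3. Elovl1 had 63.6, 138 and 53.5 CPM in cKO skin, against 104, 156 and 409 CPM in fl/fl skin (log2 fold change -1.39 ± 0.535 (SE), n = 3 each, adjusted p = 0.0836 in edgeR). Elovl4 had 1771, 2927 and 1200 CPM in cKO skin, against 753, 1084 and 2164 CPM in fl/fl skin. Its groups overlapped too (log2 fold change 0.56 ± 0.454 (SE), n = 3 each, adjusted p = 0.4 in edgeR). Abca12, at 61.8, 150 and 153 CPM in cKO skin against 19.0, 72.9 and 113 CPM in fl/fl skin, had a log2 fold change of 0.83 ± 0.499 (SE, n = 3 each, adjusted p = 0.247 in edgeR).

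The remaining genes overlapped in the same way. Cyp4f39 had 112, 118 and 55.8 CPM in cKO skin, against 43.4, 119 and 193 CPM in fl/fl skin. Aloxe3 had 26.0, 28.6 and 18.8 CPM in cKO skin, against 10.2, 21.9 and 64.4 CPM in fl/fl skin, and Pnpla1 12.2, 24.1 and 17.1 CPM in cKO skin, against 6.29, 26.2 and 69.4 CPM in fl/fl skin. For these genes all cKO values fell between the fl/fl extremes. Cers3 had 46.5, 107 and 146 CPM in cKO skin, against 11.5, 55.9 and 102 CPM in fl/fl skin, with 2 cKO libraries above every fl/fl library.

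None of the 9 was called between cKO and fl/fl skin, where 12.7% of all tested genes were called higher and 5.98% lower. In all 9 the ranges overlapped, while 17% of all tested genes were higher and 12.4% lower in every cKO library than in every fl/fl library, and the log2 fold changes ran from -1.99 to 0.83 with a median of -0.40. At an unadjusted p under 0.05 edgeR gave 2 of the 9, Alox12b and Elovl1, and 7356 of all 20940 tested genes. DESeq2 called 2 of the 9 after adjustment. Without fl/fl library 3, 3 of the 9 were called in edgeR, and without fl/fl library 1, 1. Over all tested genes, leaving out 1 library gave 2335 to 4234 calls here. The fl/fl libraries set the width of these comparisons: library 1 had the lowest and library 3 the highest level of all 9 genes within the group. Sdr9c7, for example, had 8.83, 45.9 and 139 CPM in fl/fl skin. In the same libraries the undifferentiated keratinocyte list held 0.506%, 2.21% and 3.45% of counts and the skeletal muscle list 5.11%, 1.79% and 1.08%. The part of tissue makeup in the spread of the 9 genes was not tested. In cKO skin Sdr9c7 was similarly uneven, with 8.21, 84.4 and 12.6 CPM, and cKO libraries 1 and 3, the low ones, held 1.48% and 2.58% of counts in receptor genes, against 0.467% in cKO library 2. That share was not tested as a term for Sdr9c7.

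The effect of cKO over fl/fl was also compared with that of MAR1 over isotype. For Elovl4 the difference between these effects was 2.71 ± 0.652 on the log2 scale (SE, adjusted p = 0.0311 in edgeR), from 0.56 in cKO against fl/fl and -2.15 in MAR1 against isotype. It was the only 1 of the 9 called, against 6.13% of all tested genes called positive and 1.82% negative. The median of this difference was 1.98 over the 9 genes and 0.41 over all tested genes. Other epithelial lists had similar medians: 2.10 for undifferentiated keratinocyte, 1.86 for differentiation and 1.71 for sebaceous gland markers. Dermal fibroblast markers had a median of 0.93 and skeletal muscle markers of -4.59. Over all tested genes, leaving out 1 library gave 1 to 4864 calls for this difference. Without fl/fl library 3, 7 of the 9 were called, without cKO library 3, 3, and without fl/fl library 1, 2. Without cKO library 1, fl/fl library 2, MAR1 library 2 or 3 or any one isotype library, 0 were called.

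Among the other genes of the pathway, the suppliers of fatty acids include several that rose in MC903 groups. Of 18 such genes, 5 were called higher and 0 lower in isotype against untreated skin. Of all tested genes 1.35% were called higher and 1.72% lower there. Elovl3, an elongase of sebaceous gland and hair follicle, had 668, 643 and 389 CPM in isotype skin, against 24.5 and 19.2 CPM in untreated skin (log2 fold change 4.70 ± 0.635 (SE), n = 3 and 2, adjusted p = 0.00298 in edgeR). Fabp5, an epidermal fatty acid carrier, Elovl6, which elongates palmitate, and Elovl7, another elongase, had log2 fold changes of 3.89, 2.60 and 2.86. Elovl3 and Fabp5 were also called higher in fl/fl against untreated skin (4.03 and 4.38), the only 2 of the 18. Of all tested genes 0.769% were called higher and 0.95% lower there. In cKO against untreated skin 7 of the 18 were called higher and 0 lower, against 3.86% and 2.96% of all tested genes. Among the 7 were Elovl3 (4.68), Slc27a4, a fatty acid transporter of epidermis (2.65), Acacb (2.25), which makes malonyl-CoA, and Fabp5 (3.31). With MAR1 against untreated skin 4 of the 18 were called higher and 7 lower (median log2 fold change -0.64). Of all tested genes 23.5% were called higher and 25.9% lower in that comparison. Sebaceous gland markers were called higher in 6 of 13 cases and lower in 1 case in isotype against untreated skin. They held 0.266% to 0.38% of counts with isotype, against 0.126% and 0.135% in untreated skin. Elovl3 is in both lists, so its call and its counts enter these values too. The part of gland tissue in the fatty acid genes was not tested. Scaled to epithelial genes, 1 of the 18 fatty acid genes was called higher in isotype and 1 in cKO against untreated skin.

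Of 22 genes that make or process the ceramide backbone, 3 were called higher and 0 lower in isotype against untreated skin. Of all tested genes 1.35% were called higher and 1.72% lower there. Degs2, which hydroxylates dihydroceramide, had 186, 150 and 112 CPM in isotype skin, against 6.11 and 1.95 CPM in untreated skin (log2 fold change 5.21 ± 1.21 (SE), n = 3 and 2, adjusted p = 0.0373 in edgeR). Cers4, a ceramide synthase, and Ugcg, which makes glucosylceramide for the lamellar granules, had log2 fold changes of 2.74 and 1.67. Cers4 and Degs2 were also called higher in cKO against untreated skin, while Cers2 was called lower there (-1.81). Of all tested genes 3.86% were called higher and 2.96% lower in that comparison. In fl/fl against untreated skin 1 of the 22 was called, Cers6, at -1.63, with 0.769% of all tested genes called higher and 0.95% lower. Of 16 partners of acylceramide and the lipid envelope, 2 were called lower in isotype skin, Dgat2, which makes triglyceride (-2.57), and Alox12e, an epidermal lipoxygenase (-3.68). Adipocyte markers were called lower in 5 of 8 cases and higher in 0 there (median -2.54), and dermal fibroblast markers lower in 4 of 12 and higher in 0 (median -2.18). Adipocyte markers held 0.126% to 0.175% of counts with isotype, against 0.765% and 1.02% in untreated skin, and their part in the level of Dgat2 was not tested. Casp14, the protease of cornification, had 95.1, 374 and 276 CPM in isotype skin, against 36.0 and 15.6 CPM in untreated skin, and was not called (adjusted p = 0.06 in edgeR). Scaled to epithelial genes, 1 of the 22 ceramide genes was called higher in isotype against untreated skin, and 2 of the 16 partners lower.

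With MAR1 against isotype more genes of these lists were called lower than higher under TMM scaling. Of the 18 fatty acid genes 12 were called lower and 0 higher (median log2 fold change -1.25). They included Tecr (-2.88) and Hsd17b12 (-2.24), which complete each elongation cycle together with the elongases, the desaturase Fads1 (-3.10) and Fabp5 (-2.58). Tecr had 41.3, 31.2 and 18.9 CPM in MAR1 skin, against 240, 220 and 211 CPM in isotype skin. Of the 22 ceramide genes 6 were called lower and 2 higher, where 26.5% of all tested genes were called lower and 22.6% higher, so the share called lower was near that of all genes. Asah1, the acid ceramidase, had 3.52, 2.01 and 1.95 CPM in MAR1 skin, against 83.7, 85.1 and 78.3 CPM in isotype skin (log2 fold change -5.03 ± 0.64 (SE), n = 3 each, adjusted p = 0.000267 in edgeR). The serine palmitoyltransferase subunits Sptlc2 (-2.42) and Sptlc3 (-4.27) were lower as well, and Cers6, a synthase of shorter ceramides, was higher (1.71). Of the 16 partners 10 were called lower and 3 higher, among the lower Pnpla2, the adipose triglyceride lipase, which fell 16-fold, Casp14 (-3.83) and Dgat2 (-2.10). These counts depend on the scaling. Scaled to epithelial genes, 3 fatty acid genes were called higher and 0 lower, 8 ceramide genes higher and 2 lower, and 4 partners higher and 2 lower, and under RLE scaling the counts were 1 and 6, 2 and 4, and 4 and 6.

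Between cKO and fl/fl skin 3 of the 22 ceramide genes were called higher and 1 lower, shares near the 12.7% and 5.98% of all tested genes. Kdsr, which reduces the first sphingoid intermediate (1.10), Cers6 (1.34) and the ceramidase Acer1 (1.11) were higher, and Cers2, the synthase of very long ceramides in many tissues (-1.53), was lower. Of the 18 fatty acid genes 2 were called higher, Elovl5 (1.25) and Acsl4 (1.17), which activates long fatty acids, again near the share of all genes. Of the 16 partners, Dgat2 (-1.90) and Pnpla2 (-1.74), both also abundant in adipocytes, were lower and Alox12e (2.25) was higher. Dgat2 had 70.1, 90.9 and 59.6 CPM in cKO skin, against 289, 305 and 229 CPM in fl/fl skin. Scaled to epithelial genes, 0 of the ceramide and 0 of the fatty acid genes were called in either direction, and 2 partners were lower.

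The 9 genes did not follow one profile across the 14 libraries. On log2 CPM, Alox12b was most like Elovl1 (Pearson r = 0.948) and Sdr9c7 (r = 0.931), and Abca12 most like Cers3 (r = 0.917), while Cers3 and Elovl1 were nearly unrelated (r = -0.03). These values describe 14 libraries that share groups, depth and tissue makeup, so no p is given. Among 11217 other genes averaging 10 CPM or more, 6 were most like the mean standardized level of the 9: Chmp4c (r = 0.967), Sdc1 (0.966), Bicd2 (0.96), Gsdma (0.959), Slc19a2 (0.959) and Klf3 (0.954). Sdc1, a surface proteoglycan abundant on keratinocytes, averaged 163 CPM with MAR1, 984 with isotype, 495 in cKO, 528 in fl/fl and 369 in untreated skin. Gsdma, a gasdermin of differentiated epithelium, averaged 27.9 CPM with MAR1, 207 with isotype, 83.4 in cKO, 147 in fl/fl and 52 in untreated skin.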

How the data were processed

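Polyadenylated RNA of 14 neck skin libraries was sequenced. The authors deposited 1 table of expected counts (estimated counts with decimals, not normalized) per gene symbol, with no unnamed entry among its 35328. Salmon 1.2.1, DESeq2 1.44.0 and the build GRCm39 are named, per the submitters' processing notes, without a statement of which made the table. Counting by transcript estimates can split reads between near-identical genes.

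Counts were rounded and fitted in edgeR 4.0.16 (R 4.3.3) as 1 model of 5 group means over all 14 libraries, after TMM scaling and filterByExpr, and tested two-sided by robust quasi-likelihood. This kept 20940 genes, with 9 residual degrees of freedom. The threshold was a Benjamini-Hochberg adjusted p below 0.05 within each comparison. An SE is the size of the log2 fold change divided by the square root of F. The spread is shared by all 5 groups, so a p-value reflects more than the groups compared. The fit was also run on simulated data in which few genes changed, in a single group. That setting does not cover scaling where many genes are called, as with MAR1 against isotype.

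The 9 genes and the other gene lists were chosen with earlier results of these data known. All 9 are named. Of another list, up to 4 called genes with the smallest p in a comparison are named, or, where none was called, up to 2 as values. Alox8, Mcpt8, Cpa3 and, in isotype against untreated skin, Casp14 were chosen after their values were seen. The most similar genes are the 6 with the highest Pearson r to the mean standardized log2 CPM (prior count 2), of genes averaging 10 CPM or more. Exon lengths came from GENCODE M21 and promoters from RefSeq GRCm38.p6, both on an older build, so gene coordinates of the counts are not given.

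Alternatives were RLE scaling, library totals, scaling to undifferentiated keratinocyte genes, a fit in DESeq2 1.42.0, filters dropped or raised to 1 CPM in 3 libraries, a fit of only the groups compared, the replicate number as a block, the untreated libraries summed, each library left out, fl/fl libraries 1 and 2 left out, and, added after seeing the data, cKO libraries 1 and 3 left out. Figures were drawn with matplotlib 3.10.9.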

Additional observations from a re-analysis of the deposited data

Results flagged for a closer look

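Elovl4 was flagged because the effects of the 2 experiments on it differed by a test of the difference itself. The cKO effect minus the MAR1 effect was 2.71 on the log2 scale (adjusted p = 0.0311 in edgeR's quasi-likelihood test). Across the 23 alternatives this difference stayed positive, from 0.60 to 3.61, with adjusted p from 0.0024 to 0.602. The same difference was called in 6.13% of all tested genes on the positive side, and the MAR1 libraries held 3.86% to 9.29% of counts in receptor genes, whose part in it was not tested. Groups of 3 and 2 libraries are too small for the check on single outlying libraries.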

How the results depend on the processing

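Of 492 refits of the fold changes given by name, 426 kept their direction and side of the threshold, 34 lost their call, 18 gained one and 14 changed sign. With MAR1 against isotype, 4 to 7 of the 9 genes were called, and Alox12b, Elovl1 and Sdr9c7 were called in all 16 alternatives (highest adjusted p 0.0124, 0.0224 and 0.0271). Aloxe3 and Abca12 there were called with only the groups compared (adjusted p = 0.00537 and 0.00954) or without fl/fl libraries 1 and 2 (0.0045 and 0.0301).

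Scaling shifts every fold change. For MAR1 against isotype the all-gene median shifted by 0.57 under RLE, by 0.17 under library totals and by 1.91 under epithelial scaling, and for MAR1 against untreated skin by 0.56, 0.03 and 1.02. For cKO against fl/fl it shifted by 0.12, 0.34 and -0.46, for the difference of effects by -0.46, 0.15 and -2.38, and for isotype against untreated skin by 0.015, -0.11 and -0.82. Fold changes are relative to TMM. With MAR1 against isotype, Cers3 turned to 0.41 and Pnpla1 to 0.16 under RLE scaling and under DESeq2, and Cers3 to 0.027 under library totals. Epithelial scaling gave 0.93 for Abca12, 0.82 for Aloxe3, 1.77 for Cers3 and 1.49 for Pnpla1, and -0.089 for Alox12b and -0.21 for Aloxe3 in isotype against untreated skin. The cause of these sign changes other than the scaling itself was not tested.

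The number of the 9 genes called changed as follows. In isotype against untreated skin it was 1, and 0 under epithelial scaling, with the replicate block and with the untreated libraries summed, and 2 with only the groups compared or without fl/fl libraries 1 and 2. In cKO against untreated skin it was 1, and 0 under epithelial scaling, with the replicate block, with the untreated libraries summed, with only the groups compared or without cKO libraries 1 and 3, 2 in DESeq2 and 4 without fl/fl libraries 1 and 2. In MAR1 against untreated skin it was 3, and 2 to 4 over the alternatives. In fl/fl against untreated skin it was 0, 1 in DESeq2 and 2 without fl/fl libraries 1 and 2. In cKO against fl/fl it was 0, 2 in DESeq2 and 1 without fl/fl libraries 1 and 2. In the difference of effects it was 1, 0 under epithelial scaling, with the replicate block and without fl/fl libraries 1 and 2, 2 under library totals and 4 without cKO libraries 1 and 3. The causes were not tested. Where 1 library of a group was left, it was assumed to vary like the other groups.

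Over all genes, 643 were called in isotype against untreated skin (102 to 3444 over the alternatives), 360 in fl/fl against untreated skin (0 to 2072), 1429 in cKO against untreated skin (94 to 4751), 3908 in cKO against fl/fl (655 to 5877), 1666 in the difference of effects (1 to 4864) and 10344 in MAR1 against untreated skin (5430 to 11415).

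Leaving out 1 library at a time gave 0 to 0 genes in isotype against untreated skin, 0 to 1 in cKO against untreated skin, 0 to 3 in cKO against fl/fl and 0 to 7 in the difference of effects. The log2 fold change ran from -2.30 to 0.036 for Alox12b in cKO against fl/fl and from -0.32 to 0.026 for Cers3 in MAR1 against isotype. For Elovl1 in isotype against untreated skin it ran from -0.70 to 0.13. Replicate numbers were taken from the sample titles. Of 26 pairs of libraries with the same number, 3 had a correlation of deviations over 0.1 (range -0.33 to 0.34). Pairs with different numbers reached similar values, such as 0.33 and -0.38. Library names carry partly different numbers, and pairing by those was not checked. Depth was lowest with MAR1, where Alox12b had 41, 23 and 13 counts.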
